A study of Mus musculus with 4 samples.

Results

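The messenger RNAs of 10 vasoactive genes were described in smooth muscle cells of the proximal mouse aorta. They are the endothelin receptors Ednra and Ednrb, the ligand precursor Edn1, the angiotensin receptors Agtr1a and Agtr2, the alpha-1 adrenergic receptors Adra1a, Adra1b and Adra1d, the prostacyclin receptor Ptgir and the serotonin receptor Htr1b. They were picked by name, with earlier results of these data known. They make up 10 of the 32287 features in the count matrices, and all 10 were found. The cells came from Wnt1-Cre2.mT/mG mice aged 12 weeks, in which Cre switches the membrane reporter tdTomato (sorted as RFP) to eGFP (sorted as GFP) in cells of the neural crest lineage and leaves tdTomato on in the others. Single viable cells positive for the integrin ITGA8 were sorted after digestion in the cold and sequenced as 10x 3′ libraries, 1 library for each of 4 samples. Arch-GFP held eGFP cells of the aortic arch, Asc-GFP and Asc-RFP held eGFP and tdTomato cells of the ascending aorta, and Root held cells of the aortic root with either reporter. All 4 carry the same Cre and reporter alleles, and the labels give neither the number nor the sex of the animals. Root cells were split here by their reporter UMIs into 576 Root eGFP and 1794 Root tdTomato cells, with 590 assigned to neither.

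Endothelin-1 is cut from its precursor by endothelin-converting enzymes and binds the receptor types A and B, the products of Ednra and Ednrb. The type A receptor is the main contractile endothelin receptor of vascular smooth muscle, while the type B receptor is best known on endothelium. Angiotensin II acts through the type 1 and type 2 receptors, noradrenaline contracts arteries through the alpha-1 receptors, prostacyclin relaxes them through the product of Ptgir, and serotonin acts on Htr1b, which couples to inhibitory G proteins.

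Values are UMIs of a gene per 1000000 UMIs summed over a group's cells (CPM), with exact 95% Poisson intervals. Each group is 1 library or a part of one, so cells are not replicates, no test was possible, and the intervals cover counting error only. A member is called higher or lower where its CPM differed by 1.5-fold or more with at least 5 CPM in either group. CPM is not divided by transcript length, so levels are compared between groups and not between genes. Kept cells numbered 8031 in Arch-GFP, 2960 in Root, 6408 in Asc-GFP and 4030 in Asc-RFP, with median depths of 12628 to 13755 UMIs per cell over the 5 groups compared. The summed level of 12 smooth muscle markers lay between 47288 and 54204 CPM in these groups, and no marker was at 0 in all of them. The summed level of 12 macrophage markers differed far more, at 2.54 CPM in Arch-GFP, 24.8 CPM in Root eGFP, 7.50 CPM in Asc-GFP, 703 CPM in Root tdTomato and 204 CPM in Asc-RFP. Female cells, read from Xist and 4 Y-linked genes, made up 29.1% of the sexed cells in Arch-GFP, 88.2% in Root eGFP, 70.1% in Asc-GFP, 87.0% in Root tdTomato and 54.4% in Asc-RFP. Cells with UMIs of both kinds, or of neither, were left unsexed. They numbered 816 and 1198 in Arch-GFP, 6 and 29 in Root eGFP, and 607 and 539 in Asc-GFP. Root tdTomato held 40 and 58 of them, and Asc-RFP 212 and 371. Whether doublets or free RNA misplaced the sex of cells was not tested. Any pair of libraries shared 4 to 18 cell barcodes.

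The sequences before the start sites of 3 members are given because Ednra and Adra1b were both higher in the arch cells, while Edn1, shown for contrast, was the only member called between the reporters of the ascending aorta. They are the 250 bases upstream of the RefSeq start on the gene's strand in GRCm38.p6, read 5′ to 3′, with capitals for a match to the AP-1 motif TGANTCA.
Ednra, chr8:77724453-77724702, minus strand: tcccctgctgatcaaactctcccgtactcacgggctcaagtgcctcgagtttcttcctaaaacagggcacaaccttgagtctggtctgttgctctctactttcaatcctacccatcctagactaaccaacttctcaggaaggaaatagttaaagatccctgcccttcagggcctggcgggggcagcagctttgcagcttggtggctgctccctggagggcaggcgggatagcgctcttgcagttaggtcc
Adra1b, chr11:43901238-43901487, minus strand: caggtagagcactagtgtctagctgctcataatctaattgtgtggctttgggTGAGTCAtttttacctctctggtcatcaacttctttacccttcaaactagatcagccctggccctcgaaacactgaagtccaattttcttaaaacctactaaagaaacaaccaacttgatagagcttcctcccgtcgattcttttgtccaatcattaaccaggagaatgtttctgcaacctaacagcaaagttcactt
Edn1, chr13:42301226-42301475, plus strand: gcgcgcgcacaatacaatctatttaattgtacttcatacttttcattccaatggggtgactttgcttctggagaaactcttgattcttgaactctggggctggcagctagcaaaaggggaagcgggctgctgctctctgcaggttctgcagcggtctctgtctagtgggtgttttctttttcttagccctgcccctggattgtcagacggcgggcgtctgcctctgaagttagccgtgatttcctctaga
The Ednra stretch held 54.8% G and C with 6 CG pairs, that of Adra1b 41.6% with 3 and that of Edn1 50.4% with 9, against medians of 52.4% and 6 over 32851 promoters of the same length. Motifs of 4 kinds were searched on both strands: the AP-1 motif as spelled above, the GATA motif spelled AGATAA, the TATA box spelled TATAAA and the CArG box. The AP-1 match in Adra1b, with its first base 198 bases before the start, was the only one in the 8 promoters of the 7 members that the table held. Of all promoters, 6.75% hold the AP-1 motif, 9.99% the GATA motif, 12.4% the TATA box and 1.47% the CArG box. Adra1b has a further RefSeq start farther downstream, at 72.8% G and C over its 250 bases, and 3′ reads do not tell which start a transcript used.

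Ednra, the type A endothelin receptor gene (chromosome 8, 77663031 to 77724464, minus strand, mm10), was measured at 9.26 CPM in Arch-GFP (8.67 to 9.87, 935 UMIs). It was at 5.48 CPM in Root eGFP (3.95 to 7.40, 42 UMIs), 2.57 CPM in Asc-GFP (2.24 to 2.93, 216 UMIs), 5.79 CPM in Root tdTomato (4.89 to 6.81, 146 UMIs) and 3.43 CPM in Asc-RFP (2.95 to 3.96, 185 UMIs). The arch cells had the highest level and the eGFP cells of the ascending aorta the lowest. Of the neighbours in that order, only Root tdTomato and Root eGFP did not differ beyond their counting error. Ednra was 3.61-fold higher in Arch-GFP than in Asc-GFP (log2 ratio 1.85, 1.64 to 2.07), 2.13-fold higher in Root eGFP than in Asc-GFP (1.09, 0.58 to 1.57) and 1.69-fold higher in Root tdTomato than in Asc-RFP (0.76, 0.43 to 1.08). Between the reporters of one segment it was within 1.5-fold, with a log2 ratio of -0.42 (-0.71 to -0.13) for Asc-GFP over Asc-RFP and -0.08 (-0.61 to 0.42) for Root eGFP over Root tdTomato. A UMI of Ednra was found in 8.58% of Arch-GFP, 5.90% of Root eGFP, 3.15% of Asc-GFP, 6.97% of Root tdTomato and 4.27% of Asc-RFP cells. With cells thinned to 5000 UMIs the shares were 4.84%, 1.94%, 1.25%, 2.52% and 1.32% in that order. Thinning left out the cells with fewer UMIs, which numbered 1233, 9, 493, 47 and 469 in the same order. Among the macrophage-like cells of Root, 2 of 98 held an Ednra UMI (2.04%) at a median of 8127 UMIs, against 7.12% of Root muscle cells at a median of 13423.

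**Figure D1:**
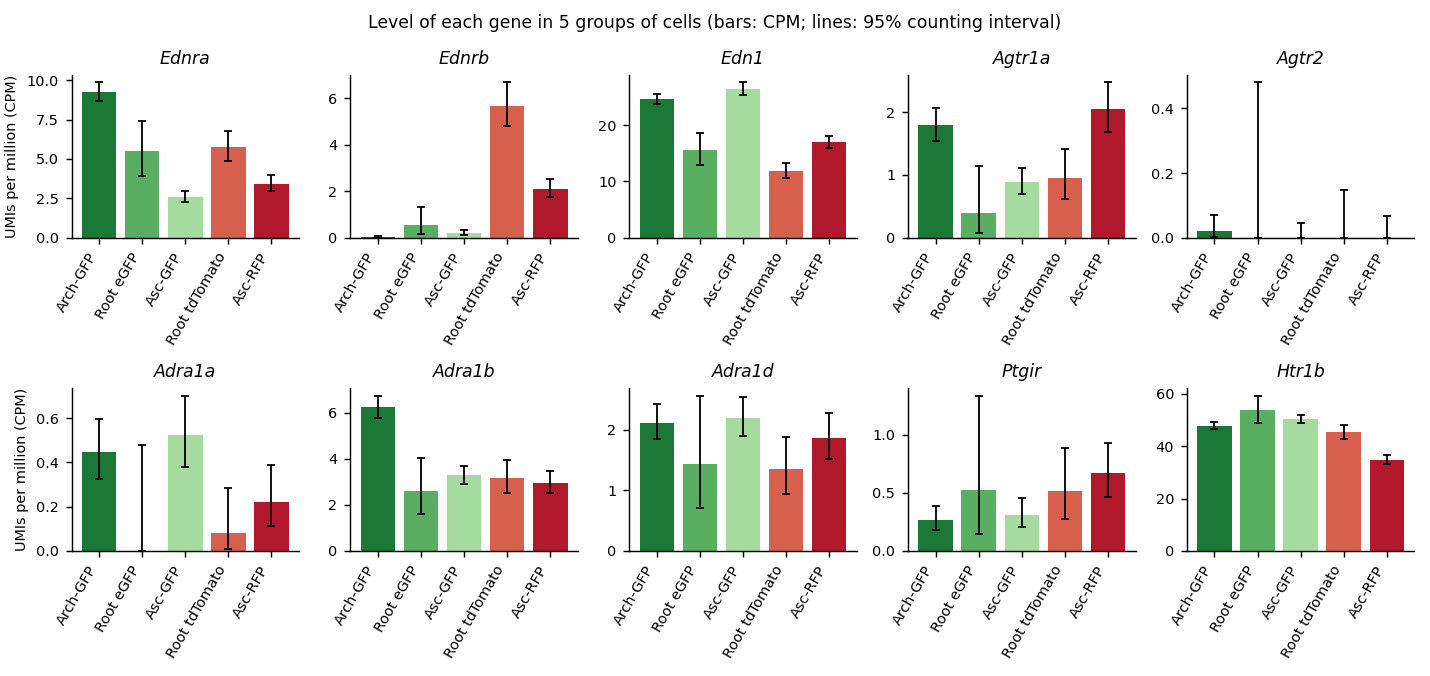
Bars give the CPM of each of the 10 members (vertical axes, each with its own scale) in the 5 groups (horizontal axis), and lines the exact 95% Poisson interval for counting error. Ednra stands highest in Arch-GFP at 9.26 CPM, Edn1 lies between 24.6 and 26.5 CPM in Arch-GFP and Asc-GFP, and Ednrb reaches 5.67 CPM in Root tdTomato.

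The Ednra UMIs were unevenly spread over the cells. Clustering of all kept cells gave 11 clusters, 8 of them treated as muscle because they were neither macrophage-like nor endothelial-like nor low in UMIs, and clusters 5 and 8 held Ednra at the highest levels. The clusters were built from the genes of these same cells, so their levels are descriptive. Cluster 5 was almost all arch, with 1141 Arch-GFP cells (14.2% of that library) and 10 Asc-GFP cells, and its leading genes were Adamtsl1, Rgs5 and Fbln1. Cluster 8 held 130 Root cells (4.39%) and 1 Asc-RFP cell, and was led by Corin, Pgam2 and Thbs1. The arch and the root are 1 library each, so whether such a cluster goes with its segment or with its library cannot be told apart.

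In cluster 5 of Arch-GFP, Ednra stood at 41.6 CPM (38.4 to 45.0) with a UMI in 34.5% of cells, against 3.57 CPM (3.18 to 3.99) and 4.29% in the other Arch-GFP muscle cells. Those cells were 14.2% of the library and held 67.0% of its Ednra UMIs, 626 of 935. The level was high in both sexes, at 49.4 CPM in female and 39.1 CPM in male cells of the cluster, against 4.67 and 3.07 CPM in female and male cells of the other muscle clusters. Of 7 pericyte markers, 3 were higher in cluster 5 than in the other arch muscle, 1 was lower, 2 were within 1.5-fold and Higd1b was at 0. The G protein regulator Rgs5 was at 1585 against 132 CPM and the potassium channel gene Kcnj8 at 78.8 against 31.7 CPM. The PDGF receptor gene Pdgfrb was at 139 against 92.1 CPM, and the lower one, Notch3, at 11.6 against 20.2 CPM. Of 12 smooth muscle markers, 10 were within 1.5-fold and 2 lower. Of 10 fibroblast markers, 3 were higher, 3 lower, 2 within 1.5-fold and 2 under 5 CPM in both. Whether these cells are pericytes or another cell type was not tested. Without cluster 5, Ednra was at 3.59 CPM in Arch-GFP, against 2.56 CPM in Asc-GFP, a log2 ratio of 0.49 that is under the 1.5-fold mark.

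In cluster 8 of Root, Ednra stood at 31.4 CPM (23.6 to 41.0) with a UMI in 31.5% of the 130 cells, against 4.87 CPM and 5.93% in the other Root muscle cells. The cluster held 58 Root eGFP cells, 10.1% of that group, and 51 Root tdTomato cells, 2.84%. Of 7 pericyte markers, 2 were higher there (Higd1b at 25.0 against 0.246 CPM, the Notch receptor gene Notch3 at 195 against 40.3 CPM), 2 were lower (Rgs5 at 2.91 against 26.6 CPM, Abcc9 at 4.66 against 42.7 CPM) and 3 were within. Of the smooth muscle markers, 3 were higher (Tagln, Actg2, Cald1), Itga8 was lower and 8 were within. Without cluster 8, Ednra was at 1.89 CPM in Root eGFP cells, against 5.17 CPM in Root tdTomato cells (log2 ratio -1.45) and 2.57 CPM in Asc-GFP (-0.44). In female cells alone, Ednra was at 2.62 CPM in Root eGFP, against 2.88 CPM in Asc-GFP (-0.14) and 5.76 CPM in Root tdTomato (-1.14). In male cells alone it was at 17.6 CPM in Root eGFP (9.62 to 29.5, 14 UMIs in 64 cells). Male cells of Asc-GFP stood at 1.97 CPM (log2 ratio 3.16) and those of Root tdTomato at 6.82 CPM (1.37). Cluster 8 held 33 female and 69 male Root cells. Among Root eGFP cells it held 13 of 477 female and 30 of 64 male cells. The ratio of Root tdTomato to Asc-RFP was 0.59 without cluster 8, at 5.17 against 3.43 CPM, and still past 1.5-fold.

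In cluster 5, Adra1b was also higher, at 8.72 against 5.79 CPM in the other arch muscle, and Adra1d was at 3.33 against 1.9 CPM, under the 5 CPM floor. Htr1b was lower there, at 24.1 against 52.0 CPM, and Edn1 was at 21.4 against 25.2 CPM. In cluster 8 no UMI of Adra1b was found, against 3.04 CPM in the other Root muscle, Edn1 had 2 UMIs (1.16 CPM) against 13.1 CPM, and Htr1b was lower, at 27.9 against 48.8 CPM. Ptgir was at 2.91 CPM (5 UMIs), against 0.438 CPM (16 UMIs) in the other Root muscle, with both under 5 CPM. Agtr1a, Adra1a and Adra1d had no UMI in the 130 cells of cluster 8, where 3 UMIs, the limit used here for a count of 0, would be 1.75 CPM.

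**Figure D2:**
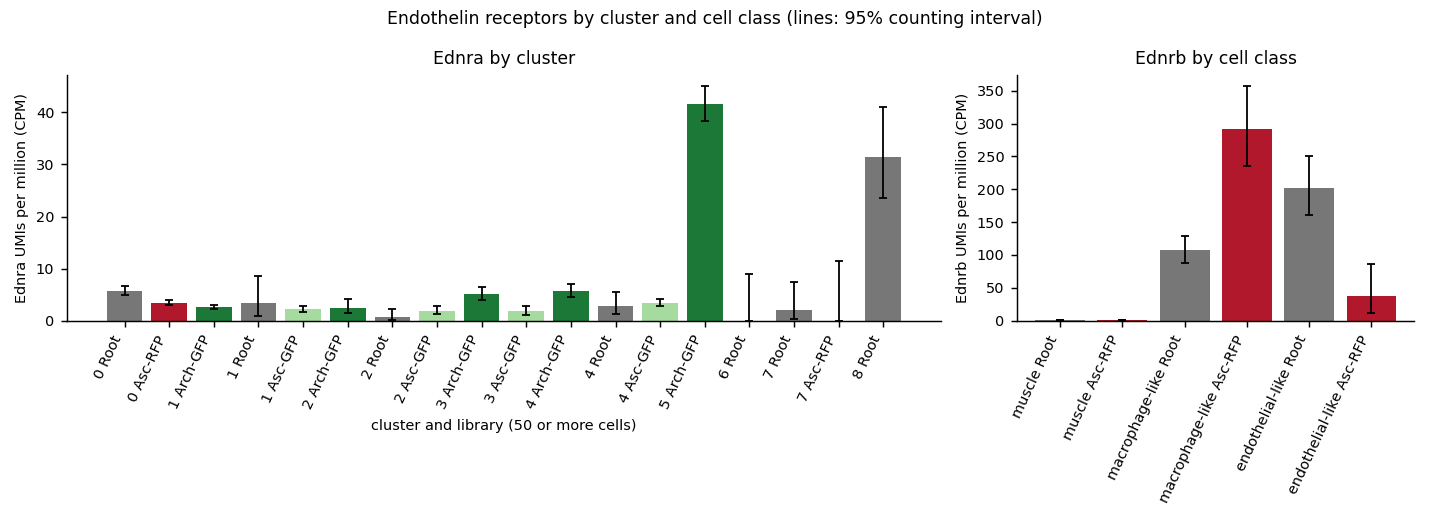
Bars give the CPM of Ednra by cluster and library with 50 or more cells (left) and of Ednrb by cell class in Root and Asc-RFP (right), coloured by library, and lines the exact 95% Poisson interval for counting error. Ednra reads 41.6 CPM in cluster 5 of Arch-GFP and 31.4 CPM in cluster 8 of Root, and Ednrb reads 291.5 CPM in the macrophage-like cells of Asc-RFP and 201.6 CPM in the endothelial-like cells of Root.

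Ednrb, the type B endothelin receptor gene (chromosome 14, 103814625 to 103844402, minus strand), had 1 UMI in Arch-GFP. It was at 0.521 CPM in Root eGFP (4 UMIs), 0.190 CPM in Asc-GFP (16 UMIs), 5.67 CPM in Root tdTomato (4.78 to 6.68, 143 UMIs) and 2.09 CPM in Asc-RFP (1.73 to 2.52, 113 UMIs). Both tdTomato groups lay above every eGFP group. Root eGFP and Asc-GFP were the neighbours in the order that did not differ beyond counting error. It was 10.9-fold lower in Root eGFP than in Root tdTomato cells (log2 ratio -3.44, -5.34 to -2.05) and 2.71-fold higher in Root tdTomato than in Asc-RFP (1.44, 1.07 to 1.81). Asc-GFP over Asc-RFP gave -3.46 (-4.32 to -2.70), with both groups under 5 CPM.

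Most Ednrb UMIs were in cells other than muscle. The 98 macrophage-like cells of Root stood at 106.7 CPM, with a UMI in 23.5% of them, and the 52 macrophage-like cells of Asc-RFP at 291.5 CPM, with a UMI in 26 of them. The 53 endothelial-like cells of Root stood at 201.6 CPM. The 21023 muscle cells of all libraries held 40 UMIs, or 0.145 CPM, and a UMI was seen in 0.166% of them. Macrophage-like cells numbered 2 among Root eGFP and 37 among Root tdTomato cells, 1 in Asc-GFP and 52 in Asc-RFP, and none in Arch-GFP. In muscle cells alone Ednrb was at 0.522 CPM in Root eGFP and 0.287 CPM in Root tdTomato, so the sign turned (log2 ratio 0.87). It was at 0.287 CPM in Root tdTomato and 0.262 CPM in Asc-RFP muscle cells (0.13). Neither difference was called among muscle cells.

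Edn1, the endothelin-1 precursor gene (chromosome 13, 42301476 to 42307990, plus strand), was at 24.6 CPM in Arch-GFP (23.6 to 25.6, 2485 UMIs). It was at 15.5 CPM in Root eGFP (12.9 to 18.6, 119 UMIs), 26.5 CPM in Asc-GFP (25.4 to 27.6, 2226 UMIs), 11.8 CPM in Root tdTomato (10.5 to 13.2, 298 UMIs) and 16.9 CPM in Asc-RFP (15.9 to 18.1, 914 UMIs). The eGFP cells of the arch and ascending aorta stood above all other groups, and both root groups were at the low end. Asc-RFP and Root eGFP were the neighbours in this order that did not differ beyond counting error. Edn1 was 1.56-fold higher in Asc-GFP than in Asc-RFP (log2 ratio 0.64, 0.53 to 0.76) and 1.71-fold lower in Root eGFP than in Asc-GFP (-0.77, -1.05 to -0.50). Arch-GFP over Asc-GFP gave -0.11 (-0.19 to -0.02), Root eGFP over Root tdTomato 0.39 (0.07 to 0.70) and Root tdTomato over Asc-RFP -0.52 (-0.71 to -0.33), all within 1.5-fold. A UMI of Edn1 was found in 18.4% of Arch-GFP, 12.8% of Root eGFP, 20.6% of Asc-GFP, 10.3% of Root tdTomato and 14.6% of Asc-RFP cells. The shares in thinned cells were 9.68%, 6.17%, 10.3%, 4.87% and 6.37%. Without thinning, 2.04% of Root macrophage-like cells held an Edn1 UMI, at a median of 8127 UMIs per cell.

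Edn1 is best known as an endothelial product, so endothelial markers were read beside it. The endothelial-like cells, 53 in Root and 13 in Asc-RFP, held 97.2 and 538.7 CPM of Edn1. Among muscle cells alone it was at 26.3 CPM in Asc-GFP cells, against 15.7 CPM in Asc-RFP cells (log2 ratio 0.75). A set of 119 muscle cells held 5 or more Edn1 UMIs each, 58 of them in Arch-GFP, 10 in Root, 42 in Asc-GFP and 9 in Asc-RFP. Their 12 endothelial markers summed to 54.2 CPM, against 57.8 CPM in muscle cells with no Edn1 UMI, and Cdh5 or Vwf was detected in 0.840% against 0.956% of cells. In muscle cells with 1 to 4 Edn1 UMIs these markers summed to 43.7 CPM in Root, 63.8 CPM in Asc-GFP, 45.8 CPM in Asc-RFP and 63.1 CPM in Arch-GFP. Muscle cells with no Edn1 UMI held 36.1, 65.6, 45.6 and 67.6 CPM in that order. The endothelial-like cluster was left out of all these cells beforehand, and the source of their Edn1 UMIs was not tested.

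Edn1 was higher in female than in male cells in 3 of the 4 libraries. In Arch-GFP it was at 43.8 CPM in female and 16.6 CPM in male cells (2.65-fold higher, log2 ratio 1.40, 1.27 to 1.53), and in Asc-GFP at 32.2 and 16.0 CPM (2.01-fold higher, 1.01, 0.84 to 1.18). In Asc-RFP it was at 20.1 CPM in female and 13.4 CPM in male cells (higher, log2 ratio 0.59, 0.38 to 0.80). In Root it was at 13.9 and 11.2 CPM (0.32, -0.10 to 0.76), an interval that holds no difference. Of all features, 1.82% were higher in female cells in Arch-GFP, 3.39% in Root, 1.18% in Asc-GFP and 1.46% in Asc-RFP. Among autosomal features ordered by this ratio from the highest, Edn1 stood at place 16 of 9476 in Arch-GFP, 1003 of 9771 in Root, 25 of 9316 in Asc-GFP and 126 of 9372 in Asc-RFP. Female and male cells of a library come from different animals, so sex and animal cannot be told apart.

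In the 8 combinations of cluster and library with at least 50 cells of each sex, the log2 ratio was above 0 and ran from 0.43 to 1.76, and the interval lay above 0 in 4 of them. In clusters 1, 3 and 5 of Arch-GFP it was 0.66, 0.43 and 0.44, below the 1.40 of the whole library. The clusters themselves differed in sex, and cluster 1 of Arch-GFP held 52 female and 2744 male cells. Cluster 4, whose first leading gene is Xist, held 801 female and 42 male cells of Arch-GFP and 2016 female and 21 male cells of Asc-GFP, so it is not among the 8. It held 28.7% of the Edn1 UMIs of Arch-GFP in 12.2% of its cells and 47.6% of those of Asc-GFP in 34.7% of its cells. Edn1 is itself among the 10 leading genes of cluster 4. The highest was in cluster 2 of Arch-GFP, a cluster led by the immediate-early genes Atf3 and Fos and by heat shock genes, at 59.5 CPM in female and 17.6 CPM in male cells. Cluster 0 of Asc-RFP, which held 97.8% of that library, gave 19.5 and 11.2 CPM in female and male cells. The share of female cells differed between the libraries compared. In female cells alone Edn1 was at 32.2 CPM in Asc-GFP cells, against 20.1 CPM in Asc-RFP cells (0.68), while in male cells alone it was at 16.0 and 13.4 CPM (0.26), under the 1.5-fold mark. In Arch-GFP over Asc-GFP it was 0.45 in female cells (43.8 against 32.2 CPM) and 0.05 in male cells (16.6 against 16.0 CPM).

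**Figure D3:**
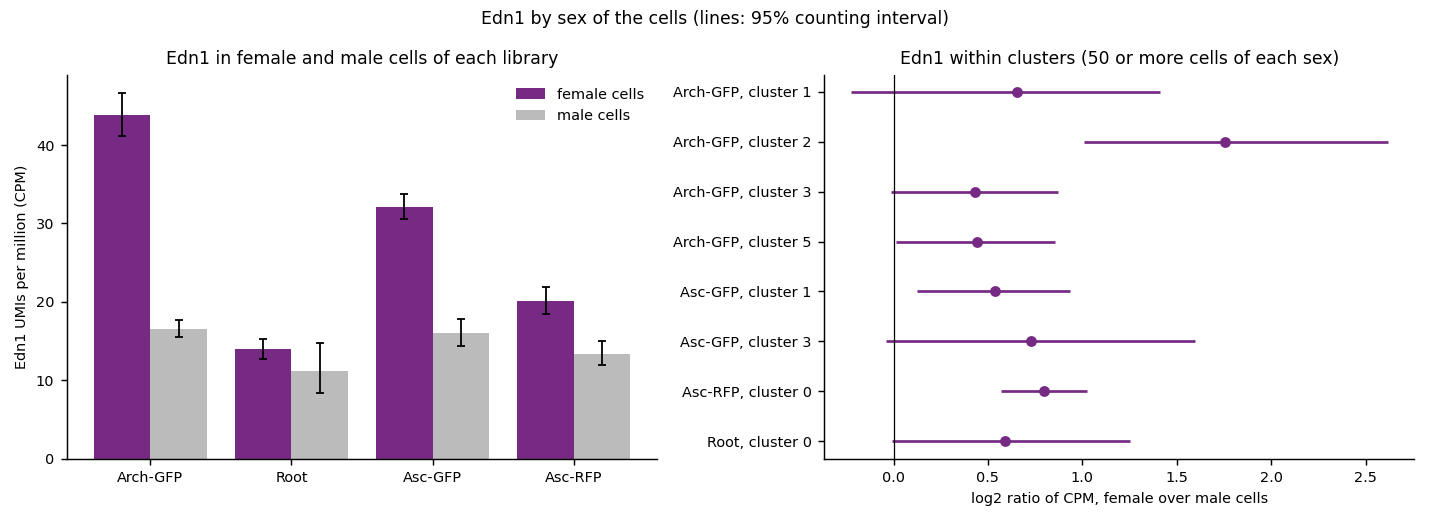
Bars give the CPM of Edn1 in female and male cells of each library (left), and points the log2 ratio of female over male cells within clusters (right), with 95% intervals for counting error. Female cells lie above male cells in Arch-GFP (43.8 and 16.6 CPM), Asc-GFP (32.2 and 16.0 CPM) and Asc-RFP (20.1 and 13.4 CPM), while the Root values (13.9 and 11.2 CPM) overlap in their intervals, and all 8 points within clusters lie above 0.

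Agtr1a, the angiotensin type 1a receptor gene, was at 1.79 CPM in Arch-GFP (181 UMIs), 0.391 CPM in Root eGFP (3 UMIs), 0.892 CPM in Asc-GFP (75 UMIs), 0.952 CPM in Root tdTomato (24 UMIs) and 2.06 CPM in Asc-RFP (111 UMIs). All groups lay under 5 CPM, so none was called. Asc-GFP over Asc-RFP gave a log2 ratio of -1.21 (-1.65 to -0.77), Arch-GFP over Asc-GFP 1.01 (0.61 to 1.42) and Root tdTomato over Asc-RFP -1.11 (-1.81 to -0.47), each beyond counting error. Agtr1a shares its strand with the overlapping feature Gm48161, so its reads may have been split between them. Agtr2, the X-linked type 2 receptor gene, had 2 UMIs in Arch-GFP and none in the other groups. The limit of 3 UMIs used for a count of 0 would be 0.391 CPM in Root eGFP, 0.0357 CPM in Asc-GFP, 0.119 CPM in Root tdTomato and 0.0556 CPM in Asc-RFP.

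Adra1b (chromosome 11, 43774606 to 43901210, minus strand) was at 6.24 CPM in Arch-GFP (5.76 to 6.75, 630 UMIs). It was at 2.61 CPM in Root eGFP (1.59 to 4.03, 20 UMIs), 3.28 CPM in Asc-GFP (2.91 to 3.69, 276 UMIs), 3.17 CPM in Root tdTomato (2.52 to 3.95, 80 UMIs) and 2.97 CPM in Asc-RFP (2.52 to 3.46, 160 UMIs). The arch stood above the other groups, which did not differ from their neighbours in the order beyond counting error. It was 1.90-fold higher in Arch-GFP than in Asc-GFP (log2 ratio 0.93, 0.72 to 1.14), with a UMI in 7.07% against 4.03% of cells. Without cluster 5 the levels were 5.81 and 3.29 CPM (0.82), in female cells alone 5.56 and 2.83 CPM (0.97) and in male cells alone 6.42 and 4.52 CPM (0.51), the last under the 1.5-fold mark.

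The other alpha-1 receptors were thinly covered. Adra1d was at 2.12 CPM in Arch-GFP (214 UMIs), 1.43 CPM in Root eGFP (11 UMIs), 2.2 CPM in Asc-GFP (185 UMIs), 1.35 CPM in Root tdTomato (34 UMIs) and 1.87 CPM in Asc-RFP (101 UMIs), and no neighbours in this order differed beyond counting error. Adra1a was at 0.446 CPM in Arch-GFP (45 UMIs), 0.523 CPM in Asc-GFP (44 UMIs), 0.0793 CPM in Root tdTomato (2 UMIs) and 0.222 CPM in Asc-RFP (12 UMIs), with no UMI in Root eGFP, where 3 UMIs would be 0.391 CPM. Asc-GFP over Asc-RFP gave 1.23 (0.29 to 2.29) for Adra1a, at levels under 5 CPM. Ptgir was at 0.267 CPM in Arch-GFP (27 UMIs), 0.521 CPM in Root eGFP (4 UMIs), 0.309 CPM in Asc-GFP (26 UMIs), 0.515 CPM in Root tdTomato (13 UMIs) and 0.667 CPM in Asc-RFP (36 UMIs). Its ratio of Asc-GFP over Asc-RFP was -1.11 (-1.90 to -0.34), and no neighbours in the order of its levels differed beyond counting error.

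Htr1b (chromosome 9, 81628291 to 81633828, minus strand) was at 47.8 CPM in Arch-GFP (46.5 to 49.2, 4829 UMIs). It was at 53.8 CPM in Root eGFP (48.8 to 59.3, 413 UMIs), 50.2 CPM in Asc-GFP (48.7 to 51.7, 4223 UMIs), 45.4 CPM in Root tdTomato (42.8 to 48.1, 1144 UMIs) and 34.9 CPM in Asc-RFP (33.3 to 36.5, 1882 UMIs). Asc-RFP stood below the other groups, and over all kept cells no comparison passed 1.5-fold. Asc-GFP over Asc-RFP gave a log2 ratio of 0.53 (0.45 to 0.60), and Root tdTomato over Asc-RFP 0.38 (0.27 to 0.49). In male cells alone it was higher in Asc-GFP than in Asc-RFP (49.1 against 30.2 CPM, 0.70). It was lower in male Root eGFP cells (25.1 CPM, 15.4 to 38.8, 20 UMIs) than in male Asc-GFP cells (-0.97). In female cells alone it was at 59.1 CPM in Root eGFP and 51.0 CPM in Asc-GFP. Over all kept cells, Root eGFP and Asc-GFP, and Arch-GFP and Root tdTomato, did not differ beyond counting error. A UMI was found in 37.2% of Arch-GFP, 41.0% of Root eGFP, 41.0% of Asc-GFP, 38.0% of Root tdTomato and 30.4% of Asc-RFP cells. The share was 5.10% in Root macrophage-like cells, at a median of 8127 UMIs per cell, and no UMI was seen in the 68 endothelial-like cells. The antisense feature D430036J16Rik overlaps Htr1b, 4933431K23Rik overlaps Ednra, Gm47118 overlaps Edn1 and Gm14285 overlaps Adra1d, and neither the labels nor the file headers say whether reads were counted by strand.

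By sex, 3 members passed the rule in Root. Htr1b was at 49.9 CPM in female and 26.1 CPM in male cells (1.92-fold higher, log2 ratio 0.94, 0.67 to 1.22). Ednra was at 5.42 CPM in female and 8.55 CPM in male cells (-0.66, -1.16 to -0.12), and Ednrb at 3.35 and 14.5 CPM (-2.11, -2.56 to -1.65). Macrophage-like cells numbered 44 of the 2409 female and 22 of the 335 male Root cells, and endothelial-like cells 27 and 8. These 2 classes held 50.7% and 40.1% of the Ednrb UMIs of Root, and their part in the Ednrb ratio was not tested. Male muscle cells of Root had no Ednrb UMI, in cluster 8 (69 cells) or in the other muscle clusters (228 cells). Female muscle cells had 1 UMI in cluster 8 (33 cells) and 16 UMIs in the other muscle clusters (2298 cells). Of all features in Root, 10.4% were higher or lower in female cells. The other libraries gave 0.31 for Htr1b in Arch-GFP, 0.05 in Asc-GFP and 0.35 in Asc-RFP, and none of these reached 1.5-fold. Without cluster 8 the Ednra values were 5.0 CPM in female and 4.11 CPM in male cells (0.28). In the 8 combinations of cluster and library, Htr1b gave log2 ratios from -0.39 to 0.72, with no common sign.

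Counted by comparison, the members called were few. In Asc-GFP over Asc-RFP, Edn1 was higher, 1 of 2 members that reached 5 CPM, where 1.32% of all features were higher and 1.55% lower. In Root eGFP over Root tdTomato, Ednrb was lower, 1 of 4, where 1.13% were higher and 3.12% lower. In Arch-GFP over Asc-GFP, Ednra and Adra1b were higher, 2 of 4, where 1.73% were higher and 0.534% lower. In Root eGFP over Asc-GFP, Ednra was higher and Edn1 lower, of 3, where 2.80% were higher and 2.97% lower. In Root tdTomato over Asc-RFP, Ednra and Ednrb were higher, 2 of 4, where 4.35% were higher and 2.27% lower. These comparisons share groups, so their counts are not independent. Where called, Ednra, Ednrb and Adra1b reached 5 CPM only in the group where they were higher, while Edn1 reached it in both groups. The number of members tested was thus set in part by the higher group, and the counts give no result about the members as a set.

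**Figure D4:**
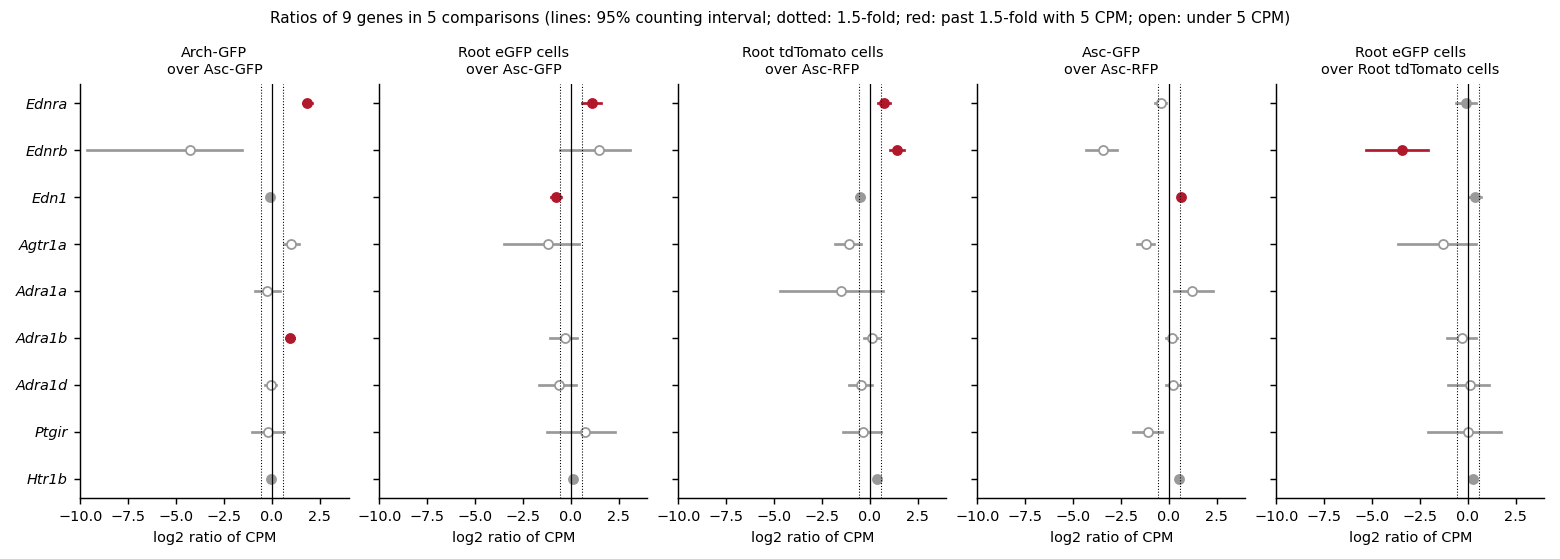
Points give the log2 ratio of CPM for 9 members (rows; Agtr2 had too few UMIs) in the 5 comparisons (panels), with exact 95% intervals for counting error, dotted lines at 1.5-fold, red for called members and open points for those under 5 CPM. Ednra lies at 1.85 and Adra1b at 0.93 in Arch-GFP over Asc-GFP, Edn1 at 0.64 in Asc-GFP over Asc-RFP and Ednrb at -3.44 in Root eGFP over Root tdTomato.

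The genes whose pattern over the 5 groups was closest to that of a member were looked for among 6057 genes for the 2 members that reached 20 CPM. For Edn1 they were Wif1 (distance 0.131 on centred log2 CPM), Eln (0.197) and Angptl2 (0.237), and for Htr1b Zmiz1 (0.132), Trabd2b (0.159) and Cdh13 (0.185). The elastin gene Eln was at 2454 CPM in Arch-GFP, 1393 CPM in Root eGFP, 2276 CPM in Asc-GFP, 1175 CPM in Root tdTomato and 1668 CPM in Asc-RFP. The likeness is over 5 points that come from 4 libraries.

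Of the other genes of these pathways, the endothelin list held 5 genes and 2 reached 5 CPM. Ece2, which encodes an endothelin-converting enzyme, was higher in Asc-GFP than in Asc-RFP (6.96 against 2.95 CPM, log2 ratio 1.24) and lower in Root eGFP than in Asc-GFP (3.00 against 6.96 CPM, -1.21), as Edn1 was. Ece1, its better-known relative, was lower in Root eGFP than in Root tdTomato (15.3 against 28.9 CPM, -0.92), while in muscle cells alone it was at 15.3 against 16.2 CPM (-0.08). Of 12 genes of the angiotensin list 7 were tested. Enpep, whose product cuts angiotensin II, was lower in Arch-GFP than in Asc-GFP (2.26 against 5.40 CPM, -1.26), higher in Root eGFP than in Asc-GFP (15.5 against 5.40 CPM, 1.52) and higher in Root tdTomato than in Asc-RFP (10.9 against 4.41 CPM, 1.30). No other gene of that list was called in the 5 comparisons.

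In the adrenergic list the beta-1 receptor gene Adrb1 was higher in Arch-GFP than in Asc-GFP (5.38 against 2.45 CPM, 1.13) and in Root eGFP than in Asc-GFP (5.61 against 2.45 CPM, 1.19). These ratios were 0.33 without cluster 5 and 0.38 without cluster 8. In the prostanoid list the cyclooxygenase gene Ptgs2 was higher in Root eGFP than in Root tdTomato (17.9 against 11.3 CPM, 0.66) and in Root eGFP than in Asc-GFP (17.9 against 11.9 CPM, 0.59). It is an early-response gene, and the summed level of 8 immediate-early genes was 1717 CPM in Root eGFP, 990 CPM in Asc-GFP and 1513 CPM in Root tdTomato, whose part in this was not tested. The other cyclooxygenase gene, Ptgs1, was lower in Root eGFP than in Root tdTomato (0.521 against 8.45 CPM, -4.02) and higher in Root tdTomato than in Asc-RFP (8.45 against 2.19 CPM, 1.95). In muscle cells alone these were -1.65 and 0.90. The prostacyclin synthase gene Ptgis was at 1075 CPM in Arch-GFP, 938 CPM in Root eGFP, 1078 CPM in Asc-GFP, 848 CPM in Root tdTomato and 1046 CPM in Asc-RFP, within 1.5-fold in all 5 comparisons. In the serotonin list Htr2a, the contractile 2A receptor gene, was lower in Root eGFP than in Asc-GFP (3.39 against 6.17 CPM, -0.86).

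Among 32 other vasoactive receptor genes, 10 to 12 were tested per comparison. The lysophosphatidic acid receptor gene Lpar1 was higher in Arch-GFP than in Asc-GFP (9.32 against 0.380 CPM, 4.61), and without cluster 5 it was at 2.02 against 0.346 CPM (2.55). The sphingosine-1-phosphate receptor gene S1pr3 was higher in Root eGFP than in Asc-GFP (63 against 2 UMIs, log2 ratio 8.43, 6.52 to 11.5) and than in Root tdTomato (8.21 against 3.37 CPM, 1.29). Without cluster 8 it was at 1.45 CPM in Root eGFP and 0.815 CPM in Root tdTomato. The thrombin receptor gene F2r was higher in Asc-GFP than in Asc-RFP (58.5 against 35.4 CPM, 0.73). The natriuretic peptide receptor gene Npr1 was lower in Root eGFP than in Asc-GFP (46.7 against 111 CPM, -1.25) and lower in Root tdTomato than in Asc-RFP (41.4 against 76.9 CPM, -0.89). The adrenomedullin receptor partner Ramp2 was lower in Root eGFP than in Root tdTomato (0.652 against 13.8 CPM, -4.40), while in muscle cells alone it was at 0.653 against 0.778 CPM (-0.25), and it was higher in Root tdTomato than in Asc-RFP (13.8 against 3.45 CPM). The 12 endothelial markers summed to 40.4 CPM in Root eGFP and 116 CPM in Root tdTomato. The pyrimidine receptor gene P2ry6 was lower in Root eGFP than in Root tdTomato (6.0 against 11.9 CPM, -0.98, and -0.22 in muscle cells alone) and than in Asc-GFP (6.0 against 11.5 CPM, -0.94). Calcrl, the calcitonin receptor-like gene, was higher in Arch-GFP than in Asc-GFP (13.5 against 8.05 CPM, 0.75, and 0.21 without cluster 5). The ATP-gated channel gene P2rx1 was lower in Arch-GFP than in Asc-GFP (5.78 against 8.82 CPM, -0.61), lower in Root eGFP than in Root tdTomato (7.69 against 11.9 CPM) and higher in Root tdTomato than in Asc-RFP (11.9 against 6.43 CPM, 0.88). The natriuretic peptide clearance receptor gene Npr3, named after its values were seen, was lower in Root eGFP than in Root tdTomato (10.7 against 16.3 CPM).

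Of 31 genes of the coupling list, which holds signalling genes and is not limited to contraction, 28 or 29 were tested per comparison. None was called in Asc-GFP over Asc-RFP, Root eGFP over Root tdTomato or Arch-GFP over Asc-GFP. The cGMP-dependent kinase gene Prkg1 was higher in Root eGFP than in Asc-GFP (111 against 70.4 CPM, 0.66) and in Root tdTomato than in Asc-RFP (91.0 against 57.3 CPM, 0.67). Arrb2 and Itpr2 were also higher in Root tdTomato than in Asc-RFP, at 0.66 and 0.61, and in muscle cells alone they were at 0.27 and 0.19. The median log2 ratio of the list lay between 0.00 and 0.08 in the 5 comparisons, while that of all features tested lay between -0.01 and 0.03.

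**Figure D5:**
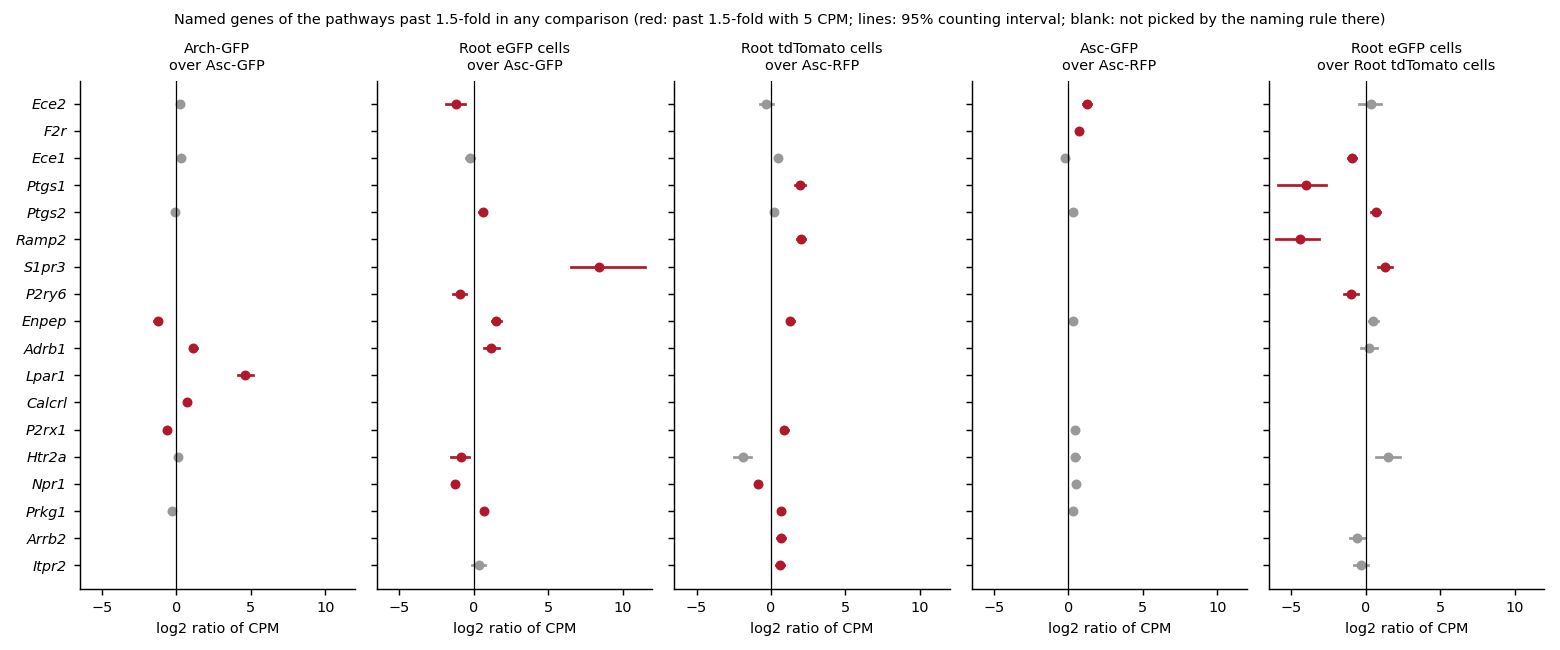
Points give the log2 ratio of CPM over all kept cells for 18 named genes of the pathway lists (rows) in the 5 comparisons (panels), with exact 95% intervals for counting error. A gene is left blank in a comparison where the naming rule did not pick it. Red points are past 1.5-fold with 5 CPM, among them Lpar1 at 4.61 in Arch-GFP over Asc-GFP and Ramp2 at -4.40 in Root eGFP over Root tdTomato.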

How the data were processed

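Gene UMI counts per cell barcode were analysed as deposited for 4 libraries. Counts came from Cell Ranger 7.0.0, per the file headers, and the submitters' processing notes name mm10 and Seurat 4.3. Per the labels' protocols, the kit was the Chromium 3′ chemistry, version 3.1. Cells were kept where 1000 or more genes were detected and mitochondrial UMIs did not pass 10%, which left 8031 of 10506 in Arch-GFP, 2960 of 4040 in Root, 6408 of 8845 in Asc-GFP and 4030 of 6539 in Asc-RFP. The labels report 4710, 1841, 4050 and 2450 cells after a filter they do not state. Doublets and free RNA were not removed and no doublet caller was run.

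UMIs were summed per group. All intervals are exact and at 95%: Poisson for CPM, conditional binomial (Clopper-Pearson) for log2 ratios, and binomial for shares. The zero limit is 3 UMIs. With 1 library per group there is no test across samples. Root eGFP cells held at least 8 eGFP and at most 1 tdTomato UMIs, and Root tdTomato cells at least 2 tdTomato and at most 2 eGFP UMIs. Female cells held Xist and no Y-linked UMI (Ddx3y, Eif2s3y, Kdm5d, Uty), male cells the reverse. Cells were clustered with scanpy 1.11.5 (2000 variable genes, 30 components, 15 neighbours, resolution 0.5), and clusters were named macrophage-like or endothelial-like from 12 markers each.

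Python 3.11.15, numpy 2.4.6, scipy 1.17.1 and pandas 2.3.3 were used. The ratio code was tested on simulated counts. The members, gene lists and clusters singled out were chosen with earlier results of these data known. All 10 members are named. From each pathway list and comparison, up to 3 genes with 5 CPM or more and the largest ratios and the 2 of highest CPM could be named, and for members reaching 20 CPM the 3 nearest genes by Euclidean distance. Gene positions are from GENCODE M21, promoters from RefSeq (GRCm38.p6). Alternatives covered the cell filter, scaling, thinning, thresholds, reporter definition, sex, and single clusters.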

Additional observations from a re-analysis of the deposited data

Results flagged for a closer look

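The ratio of Ednra in female over male cells had opposite signs in Root and Asc-GFP. It was -0.66 (-1.16 to -0.12) in Root, at 5.42 CPM in female and 8.55 CPM in male cells, and 0.55 (0.03 to 1.08) in Asc-GFP, at 2.88 CPM in female and 1.97 CPM in male cells. The difference between the libraries was not tested. Without cluster 8 the Root value was 0.28.

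The 590 Root cells with neither reporter assigned entered no comparison between reporters. Their levels were 6.91 CPM for Ednra, 8.82 CPM for Ednrb, 15.6 CPM for Edn1 and 1.32 CPM for Agtr1a. Adra1b was at 2.06 CPM, Adra1d at 1.18 CPM, Ptgir at 0.588 CPM and Htr1b at 41.2 CPM. All of these lay above 0.441 CPM, the level of 3 UMIs in these cells. They held 59 macrophage-like and 23 endothelial-like cells, whose part in these levels was not tested.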

How the results depend on the processing

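No paired analysis was possible because each group is 1 library or a part of one, and no replicate could be left out for the same reason. Of the ratios of single members recomputed under alternatives, 917 stayed inside the counting interval, 75 moved out of it and 4, all of called members, turned sign. At few UMIs that interval is wide, such as -2.06 to 1.71 for Ptgir in Root eGFP over Root tdTomato. Staying inside it says little about stability there. Members not called turned sign in another 53, 17 of which are among the 75, such as Edn1 in Arch-GFP over Asc-GFP in female cells (0.45), Edn1 in Root eGFP over Root tdTomato in male cells (-0.32) and Ednra there in male cells (1.37). The 4 were Ednrb in Root eGFP over Root tdTomato in muscle cells alone (0.87), Ednra in Root eGFP over Asc-GFP in female cells alone (-0.14) and without cluster 8 (-0.44), and Ednra in female over male Root cells without cluster 8 (0.28). Clusters 2, 5 and 8 and all alternatives for the comparison of the sexes were chosen after seeing the data. Edn1 in Asc-GFP over Asc-RFP ranged from 0.26 in male cells to 0.75 in muscle cells and was past 1.5-fold in 9 of 14 alternatives. Ednra in Arch-GFP over Asc-GFP ranged from 0.49 without cluster 5 to 2.37, and Adra1b there from 0.51 in male cells to 1.11, each past 1.5-fold in 13 of 14.

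Counts of called members that changed by more than 1.5-fold, or to or from 0, moved as follows. The share of all features called was not read under these alternatives, so the changed counts are not results about the members. Changes between 2 and 3 are left out, such as the 3 members called in Root eGFP over Asc-GFP in male cells. In Asc-GFP over Asc-RFP the count was 1, and it was 0 with the looser cell filter (500 genes, 20% mitochondrial UMIs), at 2-fold, in cells low in immediate-early UMIs and without cluster 2, and 3 with a floor of 1 CPM. In male cells and with the stricter cell filter (2000 genes, 5%) it was 1, which was Htr1b and not Edn1. In Root eGFP over Root tdTomato the count was 1, and it was 0 in muscle cells alone, with a floor of 20 CPM, in cells low in immediate-early UMIs and with the strict reporter definition, and 2 in male cells and without cluster 8. In Arch-GFP over Asc-GFP the count was 2, and it was 1 in male cells, at 2-fold and without cluster 5, and 0 with the floor of 20 CPM. In Root eGFP over Asc-GFP the count was 2, and it was 1 in thinned cells, in female cells, at 2-fold, with the floor of 20 CPM and without cluster 8. In Root tdTomato over Asc-RFP the count was 2, and it was 1 in muscle cells alone, at 2-fold and with the strict reporter definition, and 0 with the floor of 20 CPM. In female over male cells of Root the count was 3, and it was 1 at 2-fold and with the floor of 20 CPM and 5 with the floor of 1 CPM. For the sexes in Asc-GFP the count was 1, and it was 2 with the stricter cell filter, with scaling outside mitochondrial and ribosomal protein genes and with the floor of 1 CPM. For the sexes in Asc-RFP the count was 1, and it was 0 with the stricter filter, with that scaling and at 2-fold, and 2 with the floor of 1 CPM. For the sexes in Arch-GFP the count was 1, and it was 2 with the floor of 1 CPM. Other counts that stayed alike also differed in their members. In female cells the member called in Root eGFP over Root tdTomato was Ednra, and Edn1 took the place of Ednrb in Root tdTomato over Asc-RFP. Depth limits Agtr2, Adra1a and Ptgir, and Agtr1a in Root eGFP, each at few UMIs.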
